A study of Mus musculus with 3 samples.

Results

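Mitochondrial ribosomal proteins, the nuclear-encoded proteins of the ribosome inside mitochondria, were followed across mouse cardiomyocyte preparations of 3 ages. Members were all array probes whose annotated gene symbol begins with Mrpl or Mrps followed by a digit. The rule used names alone and no measured value. It found 119 of 46632 probes, which belong to 72 of 20974 named genes, 46 of the large subunit and 26 of the small subunit. Of these genes, 67 were detected on at least 1 array and 66 on all 3.

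The mitochondrial ribosome translates the few proteins that mitochondrial DNA encodes, all of them core subunits of the respiratory chain and the ATP synthase. Its RNA is made inside the organelle, and its proteins are made in the cytosol and imported. Some of these proteins descend from bacterial ribosomal proteins, and others are found in mitochondrial ribosomes and not in bacteria. The adult heart depends on oxidative phosphorylation, and human mutations in several of these genes, MRPL3 and MRPL44 among them, cause cardiomyopathy.

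Each stage was represented by 1 Illumina bead array of RNA pooled from several hearts, so no value below has a replicate and no test across stages exists. All 3 samples carried the same strain label, eGFP α-MHC on DBA, where α-MHC is the α-myosin heavy chain made by Myh6, and were taken at embryonic day 11 to 12, at postnatal day 3 to 4, and in adults of 10 weeks or more. Hearts were dissociated with an enzyme blend, and a cell sort is mentioned without the gate. A signal is given on the log2 scale after background correction and quantile normalization, and a difference is the later stage minus the earlier one. The value after ± is the standard error from the spread between beads on the arrays, which leaves out animals, preparations and hybridisations. Genes are called higher or lower from a 2-fold difference on, provided that one of the arrays compared detected them at a detection p below 0.01.

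Between 30.2% and 32.9% of probes were detected per array, and the median number of beads per probe was 37. Of 16 cardiomyocyte markers, 16 were detected on the embryonic, 16 on the neonatal and 13 on the adult array, where Myh6, Ttn and Mybpc3 were not detected. Their summed raw intensity was 350844.8 on the embryonic, 210410.7 on the neonatal and 6094.5 on the adult array. Of 15 fibroblast markers, 6 were detected on the embryonic, 14 on the neonatal and 14 on the adult array, with summed raw intensities of 24195.4, 199264.2 and 137505.8 in the same order. Macrophage markers numbered 3, 13 and 14 detected of 16, endothelial markers 4, 11 and 10 of 12, smooth muscle and pericyte markers 5, 8 and 7 of 9, and erythroid markers 9, 4 and 3 of 12, again from embryonic to adult. Where such markers differed between the arrays compared below, their part in the results was not tested.

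Most mitochondrial ribosomal protein genes were brightest on the embryonic array. The highest of the 3 signals was on the embryonic array for 64 of the 67 detected genes, on the neonatal array for 3 and on the adult array for 0. Over all 10922 genes detected on at least 1 array, the embryonic array held the highest signal for 44.4%, the neonatal for 24.8% and the adult for 30.7%. The members made up 1.4% of the summed normalized signal of all named genes on the embryonic array, 0.747% on the neonatal and 0.559% on the adult array. Cytosolic ribosomal protein genes made up 5.65%, 5.56% and 5.54% in the same order. Fewer cells that express these genes and less RNA per cell cannot be told apart in such bulk samples.

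**Figure D1:**
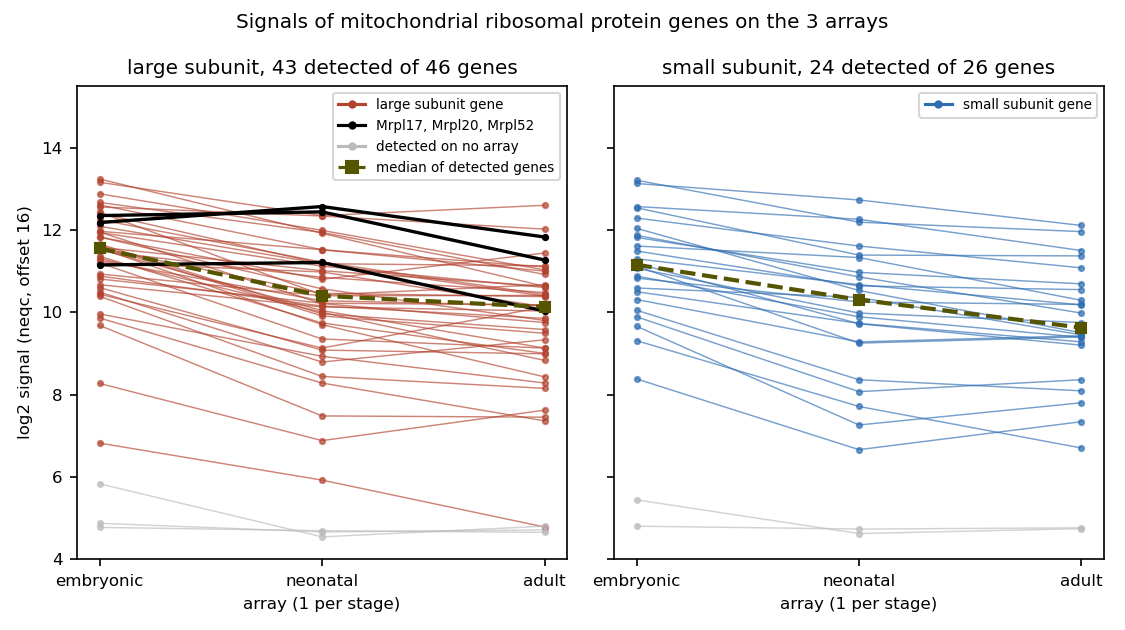
The log2 signal of each mitochondrial ribosomal protein gene on the embryonic, neonatal and adult arrays, with 1 array per stage and 1 line per gene, in panels for the large and the small subunit. The dashed line joins the medians of detected genes, black lines mark Mrpl17, Mrpl20 and Mrpl52, the 3 genes brightest on the neonatal array, and grey lines mark genes detected on no array.

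Between neonatal and embryonic arrays, genes of both subunits were lower in the neonatal array. At least 2-fold lower were 37 of 67 measured members (55.2%), against 17.2% of all 10560 genes measured. At least 2-fold higher were 0 members, against 17.6% of all genes. The members' median difference was -1.03, with quartiles of -1.55 and -0.66, and the median over all genes was -0.05. Counted without regard to size, 64 members were lower, against 52.2% of all genes, and 3 were higher, against 45.3%. In 64 members (95.5%) the arrays differed by more than 2 bead standard errors, against 80.4% of all genes.

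The 3 largest decreases belonged to proteins grouped here as without a bacterial counterpart. Mrps18b, a small subunit protein related to bacterial S18 that sits at a place of its own in the mitochondrial ribosome, had a log2 signal of 7.26 in neonatal cells and 9.66 in embryonic cells, a 5.26-fold decrease (-2.40 ± 0.10). Mrpl44, a large subunit protein with a fold related to ribonuclease III, had 7.48 in neonatal cells and 9.68 in embryonic cells (-2.20 ± 0.10). Mrpl53, also of the large subunit, had 10.42 in neonatal cells and 12.43 in embryonic cells (-2.01 ± 0.07). Of 67 measured members, these 3 genes were at least 4-fold lower, a share near the 4.51% of all genes. Without background correction Mrpl44 was at -1.95 and Mrpl53 at -1.97, so both fell short of 4-fold. The next largest were Mrpl18 (-1.95), Mrps31 (-1.87), Mrpl19 (-1.86), Mrpl36 (-1.84) and Mrps25 (-1.81), each with a bead standard error between 0.07 and 0.14. Across 66 members detected on both arrays, dimmer genes tended to have larger decreases. The Spearman correlation of the difference with the mean log2 signal was 0.53. The part of signal level in the order of members was not tested.

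Only Mrpl17, Mrpl20 and Mrpl52 had a higher value in the neonatal array, and all were under 2-fold. Mrpl17, a large subunit protein with a bacterial counterpart, had 12.57 in neonatal cells and 12.18 in embryonic cells (0.38 ± 0.08). Mrpl20, whose bacterial relative takes part in building the large subunit, had 12.44 in neonatal cells and 12.35 in embryonic cells (0.09 ± 0.06). Mrpl52, a protein without a bacterial counterpart, had 11.21 in neonatal cells and 11.15 in embryonic cells (0.06 ± 0.10). The last 2 lay within 2 bead standard errors of no difference. The nearest to 0 otherwise were Mrpl14 and Mrpl23, both at -0.22. Mrpl32 was detected on the embryonic array alone, where it had 6.82, and it was at least 1.85-fold lower in neonatal cells.

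The medians of both subunits were close in this comparison, in which 17.2% of all genes were at least 2-fold lower and 17.6% higher. In the large subunit 24 of 43 measured genes were at least 2-fold lower with a median of -1.04, and in the small subunit 13 of 24 with a median of -1.02. Of 26 genes without a bacterial counterpart, 17 were lower (median -1.10), and of 41 genes with one, 20 were lower (median -0.99). For cardiomyocyte markers the median was -0.98 and 8 of 16 were lower, while fibroblast markers had a median of 6.29 with 12 of 14 higher.

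Promoter sequences are shown for Mrps18b, Mrpl53 and Mrpl17, which stood at the ends of this comparison. Those of Mrpl9, Mrpl43 and Mrps11 are shown as examples of the motifs marked below. The windows are from RefSeq on GRCm38.p6 and run from 250 bases before to 50 bases after the transcription start, and 63 of the 72 genes had one. Each is printed in the direction of transcription, with capitals marking matches on either strand to CCGGAAG, bound by ETS factors such as GABP (nuclear respiratory factor 2), to GCATGCGC, the core bound by nuclear respiratory factor 1, or to AAGATGGCG, bound by YY1. A match describes letters in the window and is not a measured binding site.
Mrps18b, chr17:35916391-35916690, reverse strand: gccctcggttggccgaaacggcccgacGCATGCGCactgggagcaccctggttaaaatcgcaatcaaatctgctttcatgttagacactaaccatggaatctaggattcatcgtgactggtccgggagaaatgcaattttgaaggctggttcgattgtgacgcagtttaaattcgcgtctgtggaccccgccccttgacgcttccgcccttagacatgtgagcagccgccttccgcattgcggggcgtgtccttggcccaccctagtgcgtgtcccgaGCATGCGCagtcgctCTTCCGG
Mrpl53, chr6:83108858-83109157, forward strand: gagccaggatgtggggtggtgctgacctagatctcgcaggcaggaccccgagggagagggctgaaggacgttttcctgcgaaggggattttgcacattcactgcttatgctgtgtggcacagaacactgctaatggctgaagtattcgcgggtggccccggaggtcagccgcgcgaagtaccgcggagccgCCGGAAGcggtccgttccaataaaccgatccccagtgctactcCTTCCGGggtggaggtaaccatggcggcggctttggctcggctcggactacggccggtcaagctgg
Mrpl17, chr7:105811038-105811337, reverse strand: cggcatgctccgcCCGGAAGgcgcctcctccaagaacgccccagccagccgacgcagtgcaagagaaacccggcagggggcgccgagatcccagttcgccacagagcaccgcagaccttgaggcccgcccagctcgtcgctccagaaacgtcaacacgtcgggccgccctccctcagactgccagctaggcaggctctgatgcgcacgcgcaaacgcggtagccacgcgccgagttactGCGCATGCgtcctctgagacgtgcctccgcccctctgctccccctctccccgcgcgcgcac
Mrpl9, chr3:94443086-94443385, forward strand: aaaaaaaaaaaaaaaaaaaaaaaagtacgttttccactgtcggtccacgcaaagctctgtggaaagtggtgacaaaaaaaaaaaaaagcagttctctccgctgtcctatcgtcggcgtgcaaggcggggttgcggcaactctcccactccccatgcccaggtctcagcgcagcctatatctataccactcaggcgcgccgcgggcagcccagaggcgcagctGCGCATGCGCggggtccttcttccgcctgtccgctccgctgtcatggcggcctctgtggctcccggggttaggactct
Mrpl43, chr19:45006393-45006692, reverse strand: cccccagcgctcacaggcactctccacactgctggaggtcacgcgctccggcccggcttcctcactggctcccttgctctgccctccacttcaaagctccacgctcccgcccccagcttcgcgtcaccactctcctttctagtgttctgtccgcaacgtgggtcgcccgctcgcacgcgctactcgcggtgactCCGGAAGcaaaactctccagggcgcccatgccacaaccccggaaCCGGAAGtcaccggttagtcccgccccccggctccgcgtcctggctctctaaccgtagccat
Mrps11, chr7:78782881-78783180, forward strand: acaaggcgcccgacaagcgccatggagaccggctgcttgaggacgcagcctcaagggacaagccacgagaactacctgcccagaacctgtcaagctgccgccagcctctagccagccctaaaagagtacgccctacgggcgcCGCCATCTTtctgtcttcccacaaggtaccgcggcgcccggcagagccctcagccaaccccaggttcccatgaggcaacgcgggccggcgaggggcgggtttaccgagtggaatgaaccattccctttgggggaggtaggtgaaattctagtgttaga

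Mrps18b and Mrpl53 had 2 of the 3 largest decreases in neonatal against embryonic cells, and Mrpl17 had the largest increase among members. Mrps18b and Mrpl17 both hold the NRF1 core and the ETS motif, and Mrpl53 holds the ETS motif 2 times, so these motifs occurred at both ends of the comparison. They were not in all genes there. Of the other members with a higher neonatal value, Mrpl52 holds the ETS motif and Mrpl20 none of the marked motifs. Mrpl44, the second largest decrease, is not shown. Every window shown has a match, while 33 of the 63 members with a window have one. In Mrpl9 the NRF1 core lies on both strands in overlapping positions, and Mrpl43 has 2 copies of the ETS motif on the same strand. Mrps11 holds the YY1 motif on the opposite strand and shares its window with Mrpl46, whose start site lies 42 bases away in the other direction.

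Over all members with a window, the ETS motif was present in 24 of 63 genes (38.1%), against 12.9% of 17492 protein-coding genes. The NRF1 core was present in 8 members (12.7%), against 3.94% of protein-coding genes, and the YY1 motif in 7 (11.1%), against 2.14%. At least 1 of these motifs was found in 33 members (52.4%), against 17.6%. The E-box CACGTG, which MYC and other factors bind, was in 4 members (6.35%), against 8.91%. A TATAAA box from 50 to 16 bases before the start was in 0 of 63 members and in 3.45% of protein-coding genes. The median GC content was 58.0% in members and 56.3% in protein-coding genes.

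Members with the ETS motif had a median neonatal minus embryonic difference of -0.77 (22 genes) and those without it -1.03 (36 genes). For the NRF1 core the medians were -1.24 with it (8 genes) and -1.02 without it (50 genes). In adult against neonatal cells the medians were 0.26 with the NRF1 core (7 genes) and -0.42 without it (50 genes), and -0.22 with the ETS motif (22 genes) and -0.49 without it (35 genes). In adult against embryonic cells they were -0.92 with the NRF1 core and -1.33 without it, and -1.14 with the ETS motif and -1.50 without it. These medians rest on few genes and were not tested. The adult minus neonatal values with the NRF1 core also depend on the scaling. With arrays centred on their medians in place of quantile normalization, Mrpl33 was at -0.58, Mrpl9 at -0.30 and Mrps18b at -0.13. Under quantile normalization these genes were higher in adult cells, and Mrpl10 stayed higher under centring, at 0.10.

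Windows overlapping that of a gene on the opposite strand were found for 20 members (31.7%), against 7.72% of protein-coding genes. Mrpl46 and Mrps11 are such a pair with 1 protein in each subunit. The neonatal minus embryonic difference was -1.49 for Mrpl46 and -1.03 for Mrps11, and adult minus embryonic differences were -2.40 for Mrpl46 and -0.88 for Mrps11. Mrps27 faces Ptcd2, a pentatricopeptide repeat protein gene, and the neonatal minus embryonic differences were -1.69 for Mrps27 and -2.47 for Ptcd2. Mrpl47 faces Ndufb5, a subunit gene of complex I, with -1.62 for Mrpl47 and -1.15 for Ndufb5. Mrps12 faces Sars2, the mitochondrial seryl-tRNA synthetase gene, with -0.31 for Mrps12 and at least 2.55-fold lower for Sars2. Mrpl30 and its neighbour Mitd1 went opposite ways, with -0.91 for Mrpl30 and 0.85 for Mitd1. So did Mrps5 (-1.01) and Zfp661 (0.43, a bound because 1 array of the pair detected it). Other partners differed little, such as Gga3 (-0.15) beside Mrps7 (-0.76). The pairs named are examples, and likeness within pairs was not tested.

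**Figure D2:**
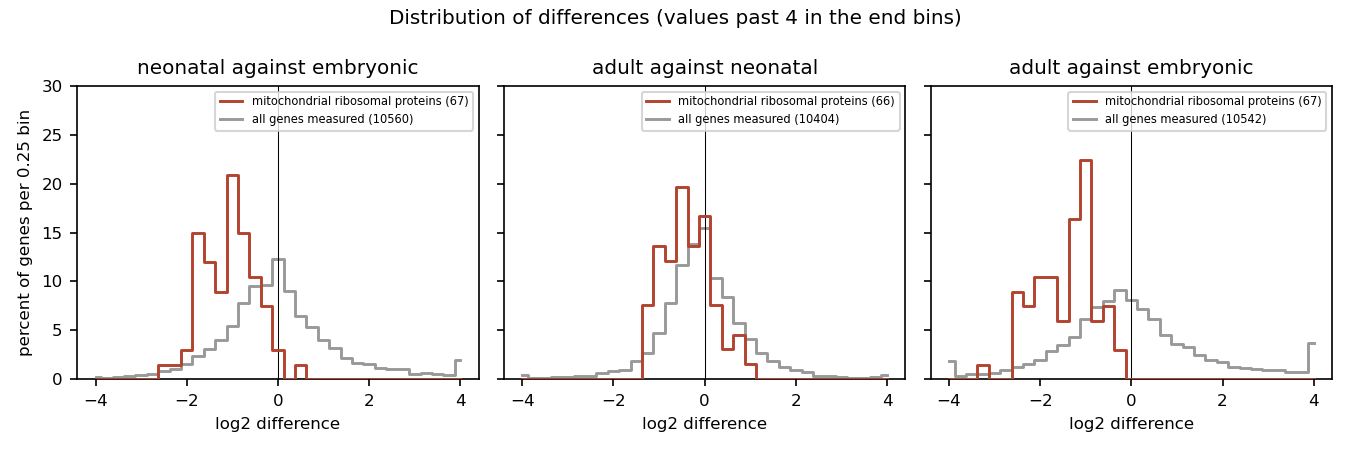
The percent of genes in bins of 0.25 on the log2 scale by difference between stages, for mitochondrial ribosomal proteins (red) and all genes measured (grey), 1 panel per comparison. The members' medians are -1.03, -0.41 and -1.25 from left to right, and those of all genes are -0.05, -0.06 and -0.14.

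Between adult and neonatal arrays few members passed 2-fold. At least 2-fold lower were 9 of 66 measured members (13.6%), against 10.7% of all 10404 genes measured, a share near that of all genes. At least 2-fold higher were 0 members, against 11.1% of all genes. The median difference was -0.41 among members and -0.06 over all genes, and by any amount 54 members were lower, against 53.6% of all genes, and 12 were higher, against 43.6%. Over the same pair of arrays, 16 of 16 cardiomyocyte markers were at least 4-fold lower, against 2.76% of all genes, and their median was -4.19. Of 14 macrophage markers, 7 were higher (median 1.01), and of 14 fibroblast markers 10 were under 2-fold (median 0.12). The part of these markers in the members' difference was not tested.

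Mrpl12, the stalk protein through which translation factors reach the ribosome, had 10.63 in adult cells and 11.92 in neonatal cells (-1.29 ± 0.08). Mrpl19 had 8.43 in adult cells and 9.70 in neonatal cells (-1.28 ± 0.17). Mrpl52 had 10.03 in adult cells and 11.21 in neonatal cells (-1.18 ± 0.09), and Mrpl20 had 11.27 in adult cells and 12.44 in neonatal cells (-1.17 ± 0.07). Both of these had differed by less than 0.1 between neonatal and embryonic arrays. The other genes at least 2-fold lower were Mrpl34 (-1.16), Mrps18c (-1.05), Mrps9 (-1.03), Mrpl51 (-1.02) and Mrps2 (-1.01).

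Among members with a higher signal in adult cells, Mrpl4, a core large subunit protein, came closest to 2-fold. It had 10.13 in adult cells and 9.13 in neonatal cells (1.00 ± 0.08, just under the threshold before rounding). Mrpl10, which anchors the stalk, was higher by 0.73 ± 0.15, Mrps26 by 0.68 ± 0.17 and Mrpl24 by 0.64 ± 0.08. Smaller differences were those of Mrps18b (0.54), Mrpl9 (0.54), Mrps25 (0.29) and Mrpl33 (0.26). Nearest to 0 were Mrpl27 (0.00), Mrps21 (-0.02), Mrpl44 (-0.03) and Mrpl48 (-0.05).

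These signs depend on the scaling. With arrays centred on their medians in place of quantile normalization, 42 members (63.6%) were at least 2-fold lower, against 38.8% of all genes. The members' median was -1.26, but the median over all genes was also displaced, to -0.79. Genes higher in adult cells made up 9.9% of the called genes under that centring and 51.0% under quantile normalization. Relative to all genes the members' median was -0.47 with centring and -0.34 with quantile normalization. Of all 66 members, 9 turned to lower values under centring, namely Mrpl9, Mrpl24, Mrpl27, Mrpl33, Mrpl53, Mrps11, Mrps18b, Mrps25 and Mrps31, and Mrpl4, Mrpl10 and Mrps26 did not turn.

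The adult array set against the embryonic array gave the largest separation of the members. All 67 measured members were lower in adult cells, against 54.7% of all 10542 genes measured, and 0 were higher by any amount, against 45.2%. At least 2-fold lower were 51 (76.1%), against 22.9% of all genes, and at least 2-fold higher were 0, against 21.4%. The median difference was -1.25 with quartiles of -1.98 and -1.02, and the median over all genes was -0.14. At least 4-fold lower were 16 of the 67 members, against 8.46% of all genes.

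Mrpl19 had the largest decrease, with 8.43 in adult cells and 11.56 in embryonic cells (8.80-fold, -3.14 ± 0.18). Mrpl12 had 10.63 in adult cells and 13.24 in embryonic cells (-2.61 ± 0.08). Mrps2, a small subunit protein with a bacterial counterpart, had 6.70 in adult cells and 9.31 in embryonic cells (-2.61 ± 0.14). These 3 genes were lower by at least 6.09-fold. Mrps9, a core small subunit protein, had 9.50 in adult cells and 12.04 in embryonic cells (-2.54 ± 0.09). The next were Mrpl39 (-2.51), Mrpl34 (-2.48), Mrpl46 (-2.40) and Mrpl47 (-2.37), all of the large subunit.

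The smallest differences were those of Mrpl4, Mrpl17, Mrpl24 and Mrpl27. Mrpl4 had 10.13 in adult cells and 10.44 in embryonic cells (-0.31 ± 0.08). Mrpl17 had 11.83 in adult cells and 12.18 in embryonic cells (-0.35 ± 0.10). Mrpl24, at the end of the tunnel through which the new protein leaves, had 11.44 in adult cells and 11.83 in embryonic cells (-0.38 ± 0.06), and Mrpl27 was at -0.52 ± 0.10. Mrpl32, detected on the embryonic array alone, was at least 1.47-fold lower in adult cells.

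**Figure D3:**
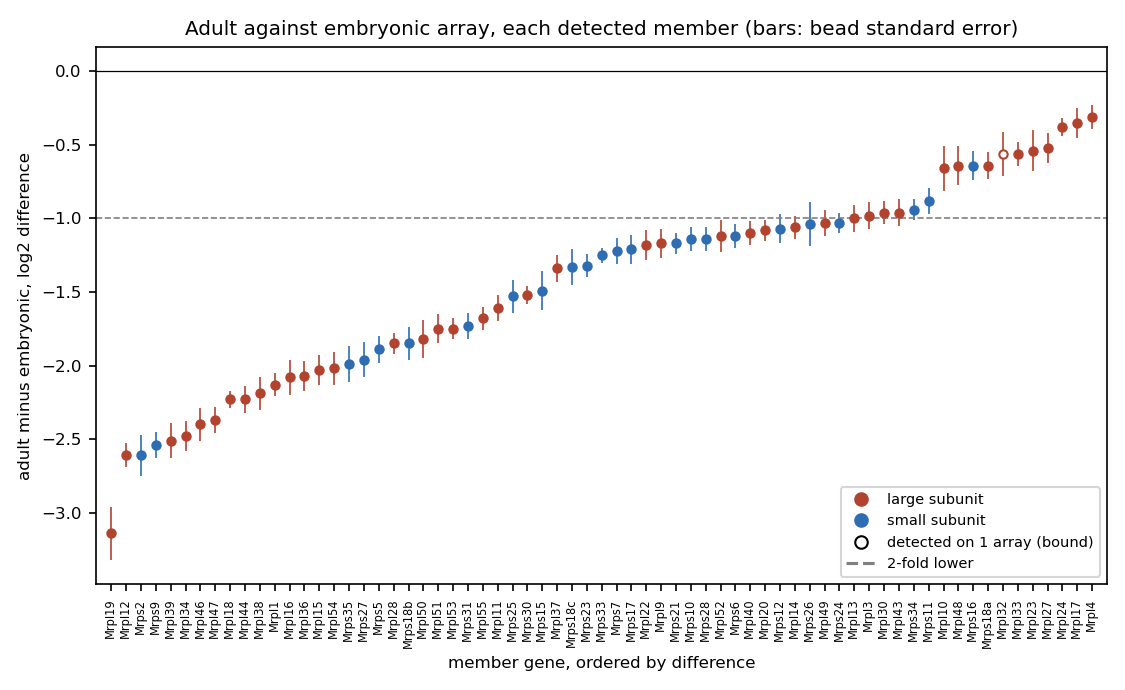
The adult minus embryonic log2 difference of each of 67 measured mitochondrial ribosomal protein genes, ordered by size, with bars for the bead standard error on 1 array per stage. All points lie below 0, from -3.14 for Mrpl19 to -0.31 for Mrpl4, and the dashed line marks a 2-fold decrease.

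Genes of the small subunit passed 2-fold in 21 of 24 with a median of -1.23, and genes of the large subunit in 30 of 43 with a median of -1.34. At least 4-fold lower were 2 of 24 in the small subunit, Mrps2 and Mrps9, a share near the 8.46% of all genes. In the large subunit 14 of 43 were. Of 26 genes without a bacterial counterpart, 22 were lower (median -1.60), and of 41 genes with one, 29 were lower (median -1.17). All 16 cardiomyocyte markers were at least 4-fold lower (median -5.14), and fibroblast markers were at least 2-fold higher in 13 of 14 with a median of 6.07. The part of these markers in the members' decrease was not tested. With arrays centred on their medians, 66 of 67 members were at least 2-fold lower, against 38.4% of all genes. The members' median was then -2.02 and the median over all genes -0.62. Genes higher in adult cells made up 28.3% of the called genes in place of 48.3%. Raw intensities with no scaling had a median adult to embryonic quotient of 0.224 among 66 members detected on both arrays and of 0.53 over all 7866 genes detected on both.

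Several genes were read by more than 1 probe, and the probes often gave different sizes. In the neonatal and embryonic pair, 21 members had at least 2 probes detected on both arrays, and their probes differed by a median of 0.80. In 8 of these genes (38.1%) the probes lay at least 1 log2 unit apart, against 33.0% of 2046 such genes in all. Mrpl3 was at -0.45 by its brightest probe and at -2.27 by another, and Mrpl43 at -0.57 and -2.03. Mrpl38 was at -1.74 by its brightest probe and 0.06 by the other, and Mrps5 at -1.01 and 0.24, so the direction in these 2 genes rests on the brighter probe.

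The adult and embryonic pair gave closer values. There, 19 members had several probes detected on both arrays and the median distance between them was 0.34, against 0.47 over 1904 such genes in all. The second probe of Mrpl3 gave -1.53 in place of -0.98, and that of Mrpl43 -1.30 in place of -0.96. Only in Mrps5 did the signs differ, with -1.89 by the brightest probe and 0.31 by another. In the adult and neonatal pair 11 of 19 genes had probes of both signs, with a median distance of 0.56, and Mrpl51 was the one called lower among them, at -1.02 by its brightest probe and 0.19 by another.

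**Figure D4:**
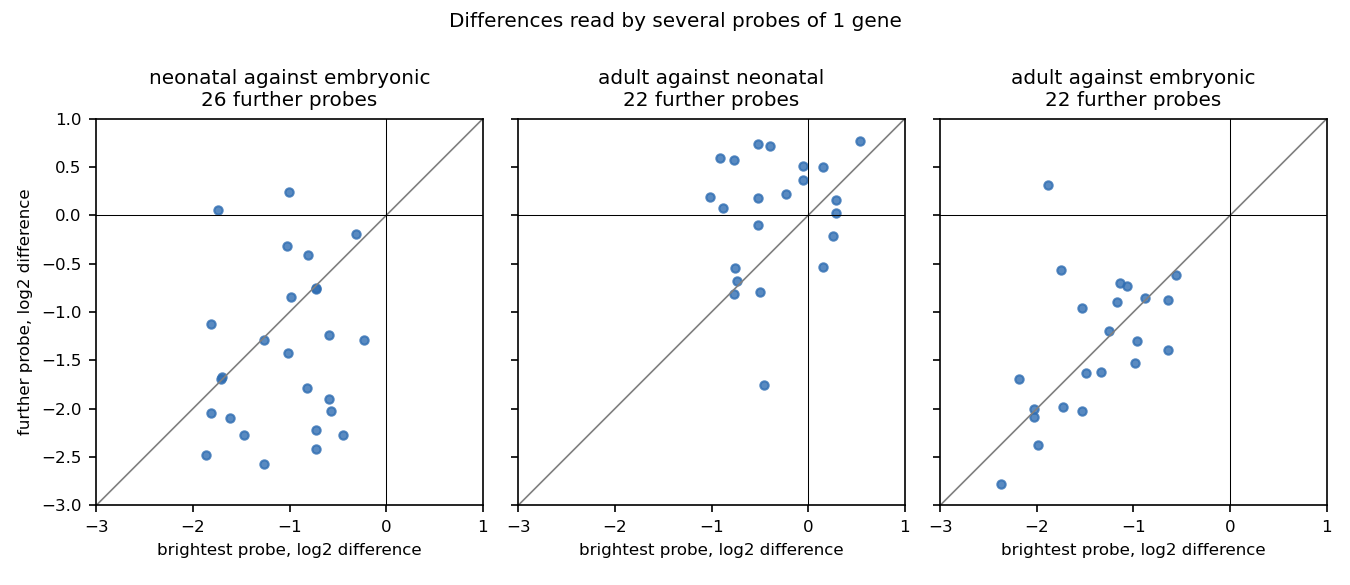
The log2 difference by each further probe of a member gene (vertical axis) against that by its brightest probe (horizontal axis), for probes detected on both arrays of a pair. The grey line marks equal values, and the median distance between probes of 1 gene was 0.80, 0.56 and 0.34 from left to right.

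Other lists of mitochondrial translation also had negative medians in neonatal against embryonic cells, with part of their genes under 2-fold. The list of translation factors, which also holds the membrane insertion protein Oxa1l, had 8 of 12 measured genes at least 2-fold lower. Its median was -1.56, and 0 were higher. Over all genes measured in this pair, 17.2% were at least 2-fold lower and 17.6% higher. Oxa1l, which inserts new proteins into the inner membrane, had 7.40 in neonatal cells and 10.03 in embryonic cells (-2.63 ± 0.10), and Gfm1, the elongation factor that moves the ribosome along the message, had 7.87 in neonatal cells and 10.47 in embryonic cells (-2.60 ± 0.13). Mrrf, the ribosome recycling factor, was at -2.04 and Tsfm, the nucleotide exchange factor for Tufm, at -1.86. Mitochondrial aminoacyl-tRNA synthetases and the related amidotransferase subunits had 12 of 16 lower (median -1.43), among them Gatb (-2.15), Gatc (-1.97), Wars2 (-1.76), Ears2 (-1.73) and Lars2 (-1.68).

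Factors that assemble the ribosome had 6 of 17 lower (median -0.60). Mrm3, which methylates the large ribosomal RNA, was at least 5.73-fold lower in neonatal cells, and Tfb1m, which dimethylates the small ribosomal RNA, was at -1.90 ± 0.09. Genes of mitochondrial DNA transcription and RNA upkeep had 5 of 11 lower (median -0.99), among them Tefm (-1.66), Lrpprc (-1.63) and Tfam (-1.56). Import genes had 9 of 22 lower (median -0.95), among them Tomm40, the channel of the outer membrane (-2.45), and Hspa9, the chaperone that pulls proteins into the matrix (-2.30).

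In adult cells against neonatal cells, the translation factor list had 1 gene higher and 1 lower of 9 measured. The higher one was Oxa1l, which is not itself a translation factor. Oxa1l had 8.44 in adult cells and 7.40 in neonatal cells (1.04 ± 0.11), and Tufm, the elongation factor that delivers the tRNAs, had 10.45 in adult cells and 11.69 in neonatal cells (-1.24 ± 0.06). Among the synthetases and amidotransferase subunits Ears2 (-2.04) and Rars2 (-1.14) were lower and Gatc was higher (1.46 ± 0.15), of 14 measured. Of 22 import genes, Dnajc19 (1.30) and Tomm7 (1.08) were higher and Timm50 (-1.16) was lower. No assembly or transcription gene passed 2-fold among 15 and 9 measured. Over all genes measured in this pair, 10.7% were at least 2-fold lower and 11.1% higher. The lists are too short for their counts to be set apart from these shares.

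Against embryonic cells, the adult array had 8 of 12 genes of the translation factor list lower, with a median of -1.52. Gfm1 was at -2.82, Tsfm at -2.43 and Tufm at -2.36. Over all genes measured in this pair, 22.9% were at least 2-fold lower and 21.4% higher. Synthetases and amidotransferase subunits had 13 of 16 lower (median -1.45), and Ears2, which charges the glutamate tRNA, was 13.7-fold lower. Assembly factors were lower in 7 of 17 (median -0.95), transcription genes in 6 of 11 (-1.02) and import genes in 14 of 21 (-1.43) with 1 higher, Dnajc19. The respiratory chain and ATP synthase list, which holds the nuclear partners of the proteins this ribosome makes, had 63 of 73 lower (median -1.79). The same list had 37 of 73 lower in the neonatal and embryonic pair (median -1.01) and 15 of 72 in the adult and neonatal pair (median -0.64).

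Cytosolic ribosomal proteins, the counterpart of the members outside mitochondria, had medians near those of all genes. In neonatal against embryonic cells 2 of 59 were at least 2-fold lower, against 17.2% of all genes. Another 1 was higher, against 17.6%, and the median was -0.04. In adult against neonatal cells 5 of 58 were lower, against 10.7% of all genes, with a median of -0.17. In adult against embryonic cells 12 of 59 were lower, a share near the 22.9% of all genes, with a median of -0.26. The members' medians in the same comparisons were -1.03, -0.41 and -1.25. The 2 lists differ in signal level. Among detected genes, the median percentile of cytosolic ribosomal proteins was 98.7 on the embryonic, 98.9 on the neonatal and 98.8 on the adult array. That of the members was 85.6, 72.1 and 65.9, and the part of signal level was not tested. All lists shared the same 3 arrays, and no test between lists was made.

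**Figure D5:**
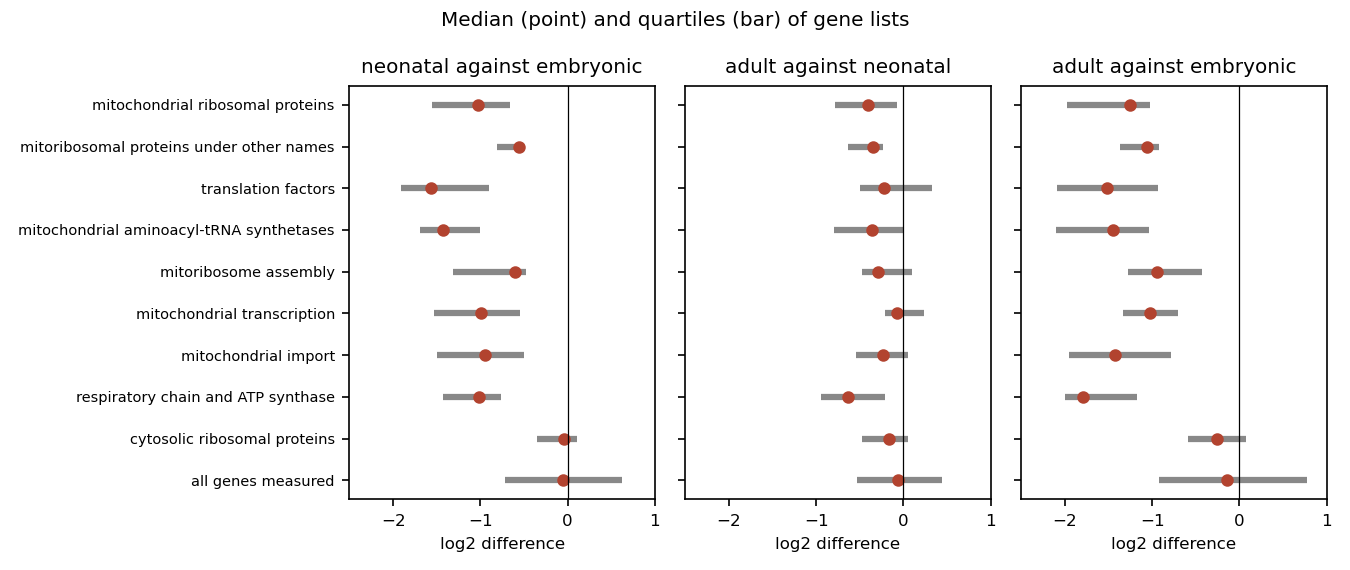
The median (point) and the span between quartiles (bar) of log2 differences of 9 gene lists and of all genes measured, with 1 panel per comparison and 1 array per stage. Mitochondrial lists have medians between -0.56 and -1.56 in neonatal against embryonic cells, and cytosolic ribosomal proteins have -0.04.

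Regulators known to drive mitochondrial gene expression were read on the same arrays, in a list of 11 genes that are not all named here. In neonatal against embryonic cells 5 of 8 measured were at least 2-fold lower (median -1.03), against 17.2% of all genes. In adult against embryonic cells 5 of 9 were lower (median -1.74), against 22.9%, and 1 was higher, against 21.4%. Ppargc1a, a coactivator of mitochondrial biogenesis, had 10.33 on the embryonic and 7.56 on the neonatal array and was not detected on the adult array. Its neonatal minus embryonic difference was -2.78 ± 0.09, and its adult signal was at least 16.9-fold lower than the embryonic. Esrrg, an oestrogen-related receptor of the heart, was at least 25.3-fold lower in neonatal cells and at least 20.2-fold lower in adult cells than in embryonic cells. Gabpa, the subunit of GABP that binds DNA at the ETS motif, had 8.60 on the embryonic, 7.55 on the neonatal and 6.76 on the adult array, and Nrf1 had 9.58, 9.33 and 9.03. Yy1 was detected on no array. Myc, a regulator of growth and ribosome synthesis, was detected on the adult array alone, with a signal of 8.13 that was at least 4.58-fold higher than in neonatal and 3.61-fold higher than in embryonic cells. These regulators are given as values beside the members, and their part in the members' differences was not tested.

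The 5 members that gave no detected signal on any array were Mrpl21, Mrpl35, Mrpl45, Mrps14 and Mrps22, and no comparison was made for them. All but Mrpl35 were read by 1 probe. The array also held 29 members with several probes and 43 with 1.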

How the data were processed

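Raw probe intensity on a linear scale was deposited, per the file headers together with the bead spread, the bead count and a detection score. The deposited detection score is a fraction that rises with signal, and its complement served as the detection p. The authors also deposited processed intensity, used as an alternative. The sources used here do not give the array version or the authors' normalization. RNA was labelled as biotin cRNA, per the labels' protocols.

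In R 4.3.3, limma 3.58.1 corrected background (neqc, offset 16), applied quantile normalization over the 3 arrays and converted to log2, so a shift common to all genes cannot be seen. The procedure was tested on simulated data, copies of 1 array with bead noise in which a small set of probes was changed, equally up and down. Such copies differ far less than the arrays of the 3 stages, so this test does not show how well the scaling suits them. Genes were named through the RefSeq table of GRCm38.p6 (11877 probes by accession, 22852 by symbol, 134 conflicting probes left out), and the probe with the highest mean signal stood for a gene. Where 1 array of a pair detected a gene, the dim value was raised to that array's lowest detected value if below it, which makes the difference a bound. With 1 array per stage no test was run.

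Members and lists were chosen with earlier results of these data known. The text names, per comparison, up to 8 members with the largest increase and 8 with the largest decrease among those detected on both arrays, up to 4 nearest to 0, members detected on 1 array, members whose probes differ in sign with a probe past 2-fold, and up to 5 genes past 2-fold in each pathway list. Mrps2 in the adult and neonatal comparison, the growth regulators, the gene pairs sharing a promoter, the undetected members and the second probes of Mrpl3 and Mrpl43 were named beside that rule.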

Additional observations from a re-analysis of the deposited data

How the results depend on the processing

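No paired analysis was possible because each stage has 1 array. Alternatives were other background settings, median centring, the authors' processed values, stricter and absent detection filters, averaging or counting all probes, and a 1.5-fold threshold. In each of the 3 comparisons the members' median stayed below 0 under all of them. For neonatal against embryonic, median centring gave a members' median of -0.89. Counting every probe gave 57 lower of 96 probes with a median of -1.11, against 19.7% of all such probes lower. For adult against neonatal, median centring gave 42 lower of 66 and -1.26, with 38.8% of all genes lower. Averaging probes and counting every probe each gave -0.28. The 1.5-fold threshold gave 4 higher and 23 lower, against 2122 higher and 2368 lower of all 10404 genes. For adult against embryonic, median centring gave -2.02. Other counts of members and medians kept their size within the limits used, 1.5 times for a count. Of 280 values of the members named by the rule under alternatives, 226 moved by at most 2 bead standard errors and 54 by more. The 226 include values that could not move. The stricter detection filter leaves a gene detected on both arrays unchanged, and averaging probes leaves a gene with 1 probe unchanged. The 226 are therefore no measure of stability. Of these named values 6 turned sign, 5 in adult against neonatal under median centring and Mrpl48 (0.09 in place of -0.05) on averaging probes. Over all 66 members of that comparison, median centring turned 9 to lower values, and in the other comparisons it turned 0. The causes were not tested. Bead error limits single values, and variation between animals is not measured.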

Other observations

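Some mitochondrial ribosomal proteins carry other symbols on the array and fall outside the naming rule. Mrpl42, listed under an older clone symbol, had 12.67 on the embryonic, 10.92 on the neonatal and 10.36 on the adult array. Of 7 further genes listed, 1 was at least 2-fold lower in neonatal against embryonic cells, a share near the 17.2% of all genes. It was Ptcd3 at -1.56, a pentatricopeptide repeat protein of the small subunit. The median of the 7 was -0.56, against -1.03 for the members. In adult against embryonic cells 5 of the 7 were at least 2-fold lower, against 22.9% of all genes, and the median was -1.06. These 5 were Ptcd3 (-1.85), Mrpl58 (-1.44), Chchd1 (-1.30), Dap3 (-1.06) and Gadd45gip1 (-1.02). Dap3 is a GTP-binding protein of the small subunit, and Mrpl58 is a peptidyl-tRNA hydrolase built into the large subunit.

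Between adult and embryonic arrays, 2 heart and muscle isoforms of cytochrome c oxidase subunits had larger decreases than any member, of which Mrpl19 had the largest at -3.14. Cox6a2 had 9.10 in adult cells and 14.06 in embryonic cells (-4.96 ± 0.10), and Cox7a1 had 8.88 in adult cells and 12.51 in embryonic cells (-3.62 ± 0.10). Both were named after their values were seen.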
